A study of Homo sapiens with 6 samples.

Results

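The comparison was between Panc1 cells with a KDM6A knockout and Panc1 control cells. Panc1 is an established human line from a ductal adenocarcinoma of the pancreas, and each genotype was measured on 1 array, so that 2 of the 6 arrays of the series were used for the comparison itself. The other 4 arrays were of BxPC3, a second pancreatic ductal adenocarcinoma line, with 2 control and 2 KDM6A knockout arrays, and served to show where Panc1 differed. A gene entered when a probe set that carries its symbol alone read above the median of all probe sets on at least 1 of the 2 Panc1 arrays, which held for 13479 of 19775 genes. The brightest such probe set on the Panc1 arrays represented the gene. Levels are on the log2 scale, differences are knockout minus control, and a difference of 1 on that scale is 2-fold.

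The knockout cells of both lines were made with the lentiCRISPR v2 vector, which brings in Cas9 and a guide RNA together, followed by puromycin selection and limiting dilution to isolate clones. The labels call the Panc1 control cells KDM6A wild-type. Whether the control cells carried a vector or met puromycin, and how many clones the knockout array stands for, is not given in the sources used here. With 1 array per genotype, an effect of the knockout cannot be told apart from a property of the clone or from variation between arrays, and no p-value is given for any Panc1 difference. In bulk RNA, fewer cells with a transcript and less of it per cell cannot be told apart either. The test used here asked whether the knockout difference in Panc1 differed from that in BxPC3. It was an interaction contrast in limma over all 6 arrays, with Benjamini-Hochberg adjustment over all 13479 genes, and it takes the spread between BxPC3 arrays for that of Panc1.

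KDM6A encodes a demethylase that removes the repressive methyl marks that Polycomb complexes place on histone H3. It works as a subunit of COMPASS-like complexes, whose KMT2C and KMT2D methyltransferases mark enhancers, and it also has roles that do not need its catalytic domain. It is recurrently mutated in pancreatic cancer. The title of the series names CDKN1A, an inhibitor of cyclin-dependent kinases, and treatment with inhibitors of histone deacetylases.

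The guide is shown since it defines the knockout, as the labels spell it and with no letter in capitals. Its length was 19 bases, and its place in the genome was not analysed here.
guide against KDM6A: attcgtgctgcaagtgcag

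KDM6A was read above the median by 2 probe sets and was lower on the knockout array on each. The brightest KDM6A probe set read 6.73 in control and 4.06 in knockout cells (-2.67). The other read 5.98 and 3.67, a difference of -2.31. Another KDM6A probe set lay below the median on both Panc1 arrays, at 3.06 and 3.25, and the last read 2.46 on each. On the brightest probe set the BxPC3 control arrays read 8.02 and 7.85 and the BxPC3 knockout arrays 7.29 and 7.01, with no overlap between the genotypes. Panc1 minus BxPC3, the difference was -1.88 ± 0.21 (SE) on the log2 scale (limma interaction, adjusted p = 0.0108). That call ended when either BxPC3 control array was left out, and over all alternatives its adjusted p lay between 0.00115 and 0.0579. The knockout level was below the median of all probe sets, where RMA compresses differences. An edited gene can keep its transcript, so these levels are a partial check of the labels.

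KDM6B, the paralogous demethylase, read 6.91 in control and 6.80 in knockout cells on its brightest probe set. Its 4 probe sets above the median gave differences from -0.83 to 0.04. Of the 11 members of the KDM6 and COMPASS-like complex list, all of which were measured, KDM6A was the 1 that differed at least 2-fold, and the others lay between -0.27 (RBBP5, a core scaffold subunit) and 0.43 (PAGR1, a subunit of the KMT2C and KMT2D complexes). KMT2C itself differed by -0.22. The list median of -0.04 turned to 0.128, 0.059 and 0.0034 under median centring, quantile and lowess scaling.

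Duct markers were present on both Panc1 arrays. Of 9 duct markers, 7 read above the median on both, among them the keratins KRT18 (13.33 on the control, 13.53 on the knockout array), KRT8 (12.47 and 12.50) and KRT19 (12.40 and 12.34) and the transcription factor SOX9 (10.88 and 10.57). The chloride channel CFTR and SPP1 were below it. Of the 7 duct markers above it, 4 were lower on the knockout array and 3 higher. EPCAM differed most, at 8.47 and 7.54 (-0.93). KRT7 came next at 6.42 and 5.98 (-0.44, but 0.27 on its other probe set). Of the markers of other cells, 0 of 4 acinar, 1 of 6 immune, 3 of 7 endothelial and 4 of 9 fibroblast and stellate markers were above the median on both arrays, and none of these read above 7.07. The leukocyte antigen PTPRC (2.60 and 2.52), the endothelial cadherin CDH5 (3.09 and 3.18) and the stromal protease FAP (3.22 and 3.38) lay near the dimmest levels. The neuronal tubulin TUBB3 was bright on both (11.04 and 11.14), as 1 of 4 neural markers above the median out of 6.

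Lower genes were in excess on the knockout array. At least 2-fold lower were 466 of 13479 genes, or 3.46%, and at least 2-fold higher were 75, or 0.556%, so that 86.1% of the genes past 2-fold were lower. The shares of 3.46% and 0.556% are the ones to read beside the counts of each list below. At least 4-fold lower were 68 genes and at least 4-fold higher 9. The bulk of genes differed little, with a median of -0.01 and quartiles of -0.28 and 0.21. Over all 54613 probe sets, dim ones included, the 2 arrays correlated at 0.987. No Panc1 replicate was analysed here to set the spread. In BxPC3 the differences between the 2 control arrays had an SD of 0.116 over the 13479 genes and those between the 2 knockout arrays an SD of 0.198. Their largest values were 0.87 and 0.91, and no gene differed 2-fold within either pair. The SD of the Panc1 difference was 0.465.

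Scaling moved the split between lower and higher genes. On the tested genes the control array had a median level of 7.43 and the knockout array one of 7.26. Centring both arrays on those medians added 0.17 to each difference and gave 320 lower and 129 higher genes, of which 71.3% were lower. The split was 399 and 88 with quantile normalization and 434 and 84 with a lowess fit on mean level. The difference also varied with level. Its median was 0.15 in the dimmest of 10 bins of genes by level, -0.14 in the fifth and 0.00 in the brightest. Of the 466 lower genes, 113 were below the median on the knockout array, and 14 of the 75 higher ones were below it on the control array. Just past the 2-fold line lay LGALS3BP (-1.002) and CDH18 (1.005), and just short of it CCDC71L (-0.9998) and UGDH (0.993).

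**Figure D1:**
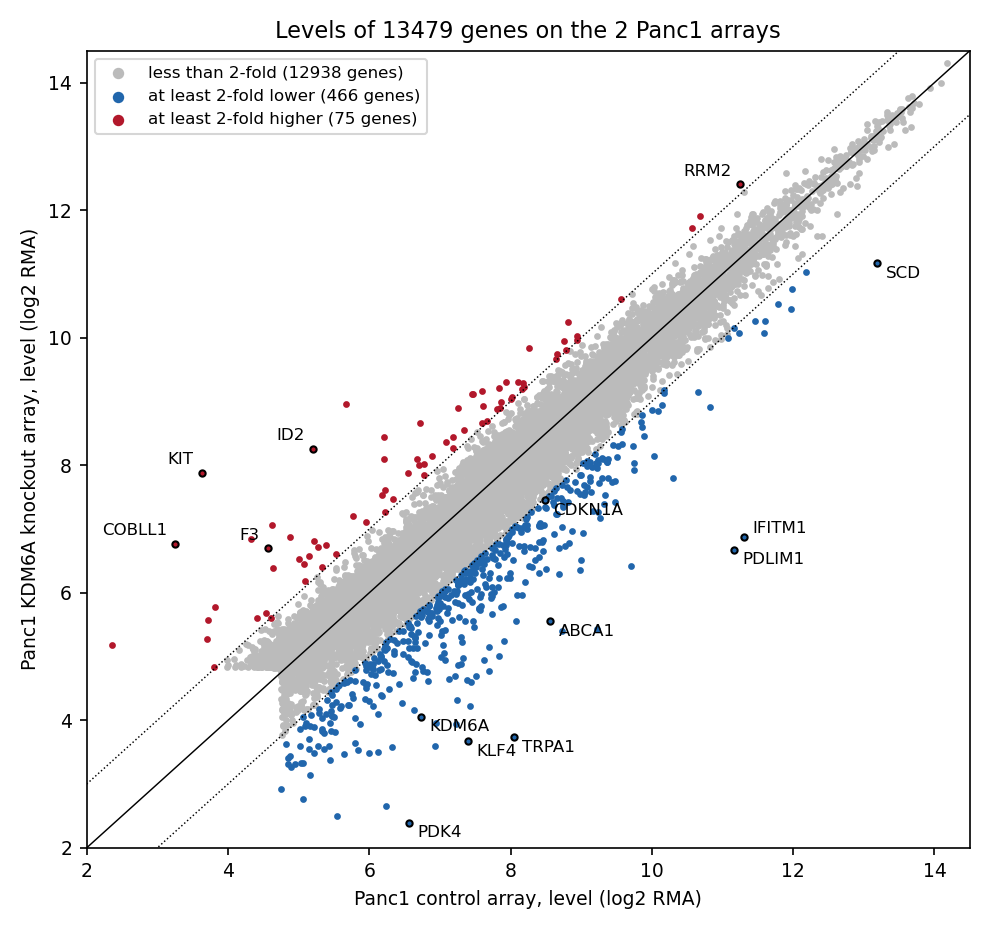
Level of each of 13479 genes on the Panc1 control array (horizontal axis, log2 RMA) and on the Panc1 knockout array (vertical axis, log2 RMA), 1 point per gene, with dotted lines at a 2-fold difference. The 466 lower genes below the lower line outnumber the 75 above the upper one, and PDLIM1 and IFITM1 lie far below it at high control levels while KIT and COBLL1 lie above it at low ones.

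Different probe sets of a gene read different stretches of its transcripts in the same 2 RNA samples, so they check the probe and not the biology. Among 6289 genes with at least 2 probe sets past the filter, 54.7% had all of them on the same side of 0. The share was 67.3% (136 of 202) for genes at least 2-fold lower and 93.8% (30 of 32) for genes at least 2-fold higher. Both sets were picked by 1 of the probe sets counted, so a share above 54.7% is in part built in. The filter adds to this, since a dim probe set could enter through the array on which it was higher, while a flat one could not. In 55 genes, 0.875% of the 6289, every probe set was at least 2-fold lower, and in 11, or 0.175%, every one was at least 2-fold higher. No gene had a probe set at least 2-fold lower together with another at least 2-fold higher. A single probe set past the filter carried 264 of the lower and 43 of the higher genes. For these there was no second reading past the filter, and dimmer probe sets, which some of them have, did not enter.

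Of the 55 lower genes with agreeing probe sets, the 15 with the largest differences are described. GUCY1A2, a subunit of the nitric oxide receptor guanylate cyclase, read 6.23 in control and 2.65 in knockout cells (-3.58), and its other probe set past the filter gave -3.21. Its 4 probe sets below the filter differed by -0.82 to -0.15, and with no filter 1 of these, at 4.60 and 4.44, was the brightest by mean. GABRB1, a GABA receptor subunit, read 6.93 and 3.60 (-3.32, and -2.32 on the other). SRGN, the core protein of the intracellular proteoglycan serglycin, read 8.72 and 5.41 (-3.32), and its second probe set read 8.09 and 4.22 (-3.87). SRGN stood well above the median in control cells and near it in the knockout. ABCA1, the transporter that loads cholesterol onto apolipoproteins, read 8.56 and 5.55 (-3.01), with -3.37 on the other probe set. UNC5C, a netrin receptor, read 7.39 and 4.63 (-2.76).

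FZD7, a Wnt receptor, read 7.91 and 5.25 on one probe set and 7.87 and 5.20 on the other, so the readings were nearly the same. SLC4A11, a membrane transporter of the bicarbonate family (8.98 and 6.36, -2.63), and NOL4L (7.69 and 5.16, -2.54) had a second probe set at about -1.3, with values of -1.27 and -1.30. ENPP1, an ectoenzyme that makes pyrophosphate, read 7.21 and 4.70 (-2.51) and ranged to -1.78 over 3 probe sets. TIMP2, an inhibitor of matrix metalloproteinases, read 9.0 and 6.52 (-2.49) and ranged from -2.80 to -1.41. TBC1D4, a regulator of glucose transporter traffic, read 7.33 and 4.98 (-2.35), SLC6A15, an amino acid transporter, 5.80 and 3.65 (-2.15), and ANTXR2, a receptor for matrix proteins, 9.02 and 6.93 (-2.09). CDKN1C, a CIP/KIP inhibitor of cyclin-dependent kinases, was measured by 4 probe sets above the median, all between -2.38 and -1.45, the brightest of which read 7.25 and 4.88.

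The 11 higher genes with agreeing probe sets included regulators of transcription and of proliferation. ID2, which binds helix-loop-helix transcription factors and keeps them off DNA, read 5.21 in control and 8.26 in knockout cells (3.05), with 2.46 on its other probe set. PRRG4, a membrane protein with a Gla domain, read 4.62 and 7.06 (2.44), DIPK1A 6.21 and 8.44 (2.23), and INPP4B, a phosphoinositide phosphatase, 4.88 and 6.87 (1.99). The DIPK1A probe sets past the filter, like those of ID2 and RRAGD, are all of the kinds that may read other transcripts. A dim DIPK1A probe set below the filter differed by 0.15. In ID2 and INPP4B the control level was close to the median of all probe sets, and in PRRG4 it was below it. DSC2, a desmosomal cadherin, read 7.25 and 8.90 (1.65), RRAGD, a GTPase that signals amino acid supply to mTORC1, 8.27 and 9.83 (1.57), and MITF, a transcription factor of melanocytes and of lysosome genes, 7.84 and 9.21 (1.38). CHST11, a chondroitin sulfotransferase (1.36), and ENC1, an actin-binding protein (1.32), followed. RRM2, the regulated subunit of ribonucleotide reductase, was the brightest of the group at 11.25 and 12.40 (1.15).

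**Figure D2:**
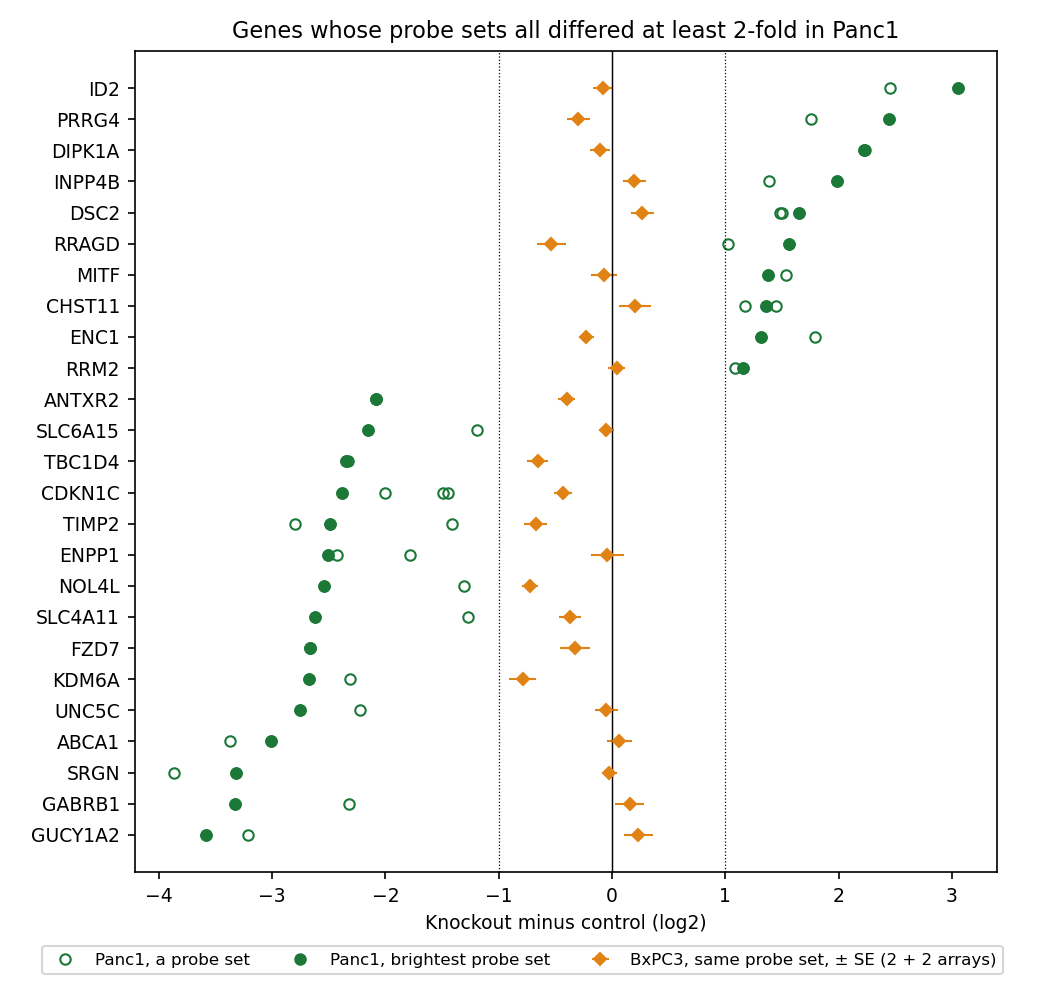
Knockout minus control (horizontal axis, log2) of the 15 lower and 10 of the 11 higher genes (vertical axis) chosen since their probe sets past the filter all differed at least 2-fold in Panc1, with 1 green circle per probe set, the brightest filled, and the BxPC3 difference of the brightest as an orange diamond with its limma SE. The Panc1 circles lie outside the dotted 2-fold lines by selection, while the BxPC3 diamonds lie between -0.79 (KDM6A) and 0.27 (DSC2).

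CDKN1A, measured by 1 probe set, was lower on the Panc1 knockout array by just over 2-fold. CDKN1A read 8.48 in control and 7.45 in knockout cells (-1.03). It was short of 2-fold with median centring (-0.86), quantile normalization (-0.91) and lowess (-0.94). In BxPC3 the control arrays read 9.92 and 9.98 and the knockout arrays 8.84 and 8.79. The interaction for CDKN1A missed the threshold (limma, adjusted p = 0.583, from 0.130 to 0.864 over the alternatives), which does not show that the lines responded alike. Among 19 measured CDK inhibitors and G1 cyclins, 3 were at least 2-fold lower, namely CDKN1C, CCND2 (cyclin D2, 5.87 and 3.94, -1.93) and CDKN1A, and 0 were higher, beside 3.46% and 0.556% of all genes. The list median was 0.24, with 13 members above 0, among them the cell cycle activators E2F2 (0.82) and CCNE1 (0.75). RBL2, a retinoblastoma family member, was at -0.76.

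Genes of DNA replication and of mitosis were mostly a little higher on the knockout array. Of 29 replication genes 24 lay above 0, with a median of 0.30 beside -0.01 over all genes, and 1, RRM2, was past 2-fold. CDC6 (7.69 and 8.53, 0.85) and CDT1 (6.80 and 7.63, 0.83), which load the replicative helicase, came next, before GINS1 (0.68), FEN1 (0.66) and MCM10 (0.65). Of 30 mitotic genes 26 lay above 0, with a median of 0.36, and 0 were past 2-fold. CDC20, an activator of the anaphase-promoting complex, read 10.58 and 11.44 (0.85), and KIF20A (0.82), CCNA2 (0.72), CCNB1 (0.71) and AURKA (0.65) were also among the 6 that differed most. The kinesin CENPE went the other way, at 8.32 and 7.53 (-0.80). In BxPC3 the medians of the same members were 0.07 for replication and 0.16 for mitosis.

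The 19 measured genes of ribosome biogenesis and MYC all lay above 0, with a median of 0.28 and none past 2-fold. NIP7 (8.54 and 9.31, 0.78) and RRS1 (9.73 and 10.37, 0.64), which act in the maturation of large ribosomal subunits, were the highest, followed by the spermidine synthase SRM (0.49) and NOP16 (0.48). In BxPC3 their median was -0.15 and 15 of 19 lay below 0. By the limma interaction test 5 of the 19 had the higher difference in Panc1 and 0 the lower, with NIP7 at an adjusted p of 0.0195. Across all genes that test called 14.4%. The Panc1 difference enters the contrast and the lists were chosen with earlier results known. Counts of calls per list, here and below, are therefore no separate support for a lower or higher list. They were not repeated with a BxPC3 array left out.

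Genes listed here as targets of p53, other than CDKN1A, tended to lower values. Whether p53 controls each of them in these cells was not tested. Of 21 measured, 16 lay below 0, the median was -0.48, and, beside 3.46% of all genes, 4 were at least 2-fold lower. These were CCNG2, an atypical cyclin (7.84 and 6.23, -1.61), TP53INP1 (7.18 and 5.58, -1.60), the growth arrest gene GADD45B (8.94 and 7.60, -1.34) and the kinase PLK2 (9.23 and 7.96, -1.27). Other probe sets of CCNG2, TP53INP1 and GADD45B reached 0.19, 0.62 and 0.16, so these 3 rest on part of their probe sets. SESN2 (-0.87) and GADD45A (-0.82) were short of 2-fold. In BxPC3 the median of the same list was -0.09.

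Genes of lipid synthesis were lower on the Panc1 knockout array. Many of them are driven by the SREBP transcription factors, which enter the nucleus when sterols run low, and by liver X receptors, which respond to oxysterols. Of 16 genes of fatty acid synthesis and sterol efflux 14 lay below 0, and the median was -0.88. At least 2-fold lower were 6 and higher 0, beside 3.46% and 0.556% of all genes. The stearoyl-CoA desaturase SCD read 13.19 in control and 11.16 in knockout cells (-2.03), and its 4 probe sets ranged from -2.98 to -2.01. The phosphatidate phosphatase LPIN1 read 9.23 and 7.27 (-1.96), with 3 probe sets between -2.01 and -1.11. The desaturase FADS2 read 9.74 and 7.92 (-1.82), with -0.87 on its other probe set. SREBF1, which encodes the SREBP of fatty acid synthesis, read 9.25 and 7.72 (-1.53), and fatty acid synthase FASN 9.51 and 8.13 (-1.38). For SREBF1 and FASN a dimmer probe set gave -0.02 and 0.38. ABCA1, a target of liver X receptors, had the lowest difference of the list (-3.01).

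Cholesterol synthesis followed the same direction with smaller values. Of 19 genes 17 lay below 0, with a median of -0.75. Past 2-fold, 5 were lower and 0 higher, beside 3.46% and 0.556% of all genes. STARD4, a carrier of cholesterol between membranes, read 7.31 and 5.23 (-2.08), and INSIG1, the sterol-regulated anchor of SREBP, 9.75 and 8.03 (-1.71, and up to -1.10 over 3 probe sets). HMGCS1, the synthase of the HMG-CoA step, read 8.02 and 6.79 (-1.23), TM7SF2, a sterol reductase, 8.15 and 6.95 (-1.20), and HSD17B7, a ketosteroid reductase, 9.21 and 8.04 (-1.16). DHCR7, which makes cholesterol from its last precursor, was at -0.95. In BxPC3 the medians were -0.08 for cholesterol synthesis and 0.04 for fatty acid synthesis and efflux, with 0 genes past 2-fold in either list. By the interaction test 12 of 19 and 11 of 16 members had the lower difference in Panc1 and 0 the higher, where 14.4% of all genes were called in either direction. As the Panc1 difference enters that contrast, these calls are no separate support.

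The amino acid response followed the same direction. ATF4 is the transcription factor that cells translate when amino acids are short, and its targets import and make amino acids and charge transfer RNAs. Of 30 measured genes 29 lay below 0, and the median was -0.70. At least 2-fold lower were 10 and higher 0, beside 3.46% and 0.556% of all genes. The mitochondrial folate enzyme ALDH1L2 read 5.64 and 3.47 (-2.17), and the transcription factor ATF3 7.77 and 6.01 (-1.76), though its dimmer probe set gave -0.19. Asparagine synthetase ASNS, a direct ATF4 target, read 11.97 and 10.45 (-1.52). DDIT4, an inhibitor of mTORC1, read 11.59 and 10.07 (-1.52), NUPR1 9.30 and 7.81 (-1.49) and PHGDH, the entry enzyme of serine synthesis, 9.36 and 8.04 (-1.32). ATF4 itself, named after its value was seen, read 11.98 and 10.76 (-1.23). The BxPC3 median of the same genes was -0.04, with 0 past 2-fold. The interaction test called 15 of 30 with the lower difference in Panc1 and 0 with the higher, beside 14.4% of all genes in either direction. Here too the Panc1 difference enters the contrast, so the calls add no separate support. Over 7 alternatives of scaling, filter and choice of probe set, the medians of these 3 lists lay no higher than -0.676 for fatty acid synthesis, -0.58 for cholesterol and -0.527 for ATF4.

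Chaperones and sensors of the unfolded protein response, which share triggers with ATF4, differed less. Of 20 members 2 were at least 2-fold lower, the sensors ERN1 (6.84 and 5.62, -1.22) and ATF6 (8.66 and 7.49, -1.18), but their other probe sets reached 0.31 and -0.01. The list median was -0.18, and the chaperone HSP90B1 differed by -0.66.

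**Figure D3:**
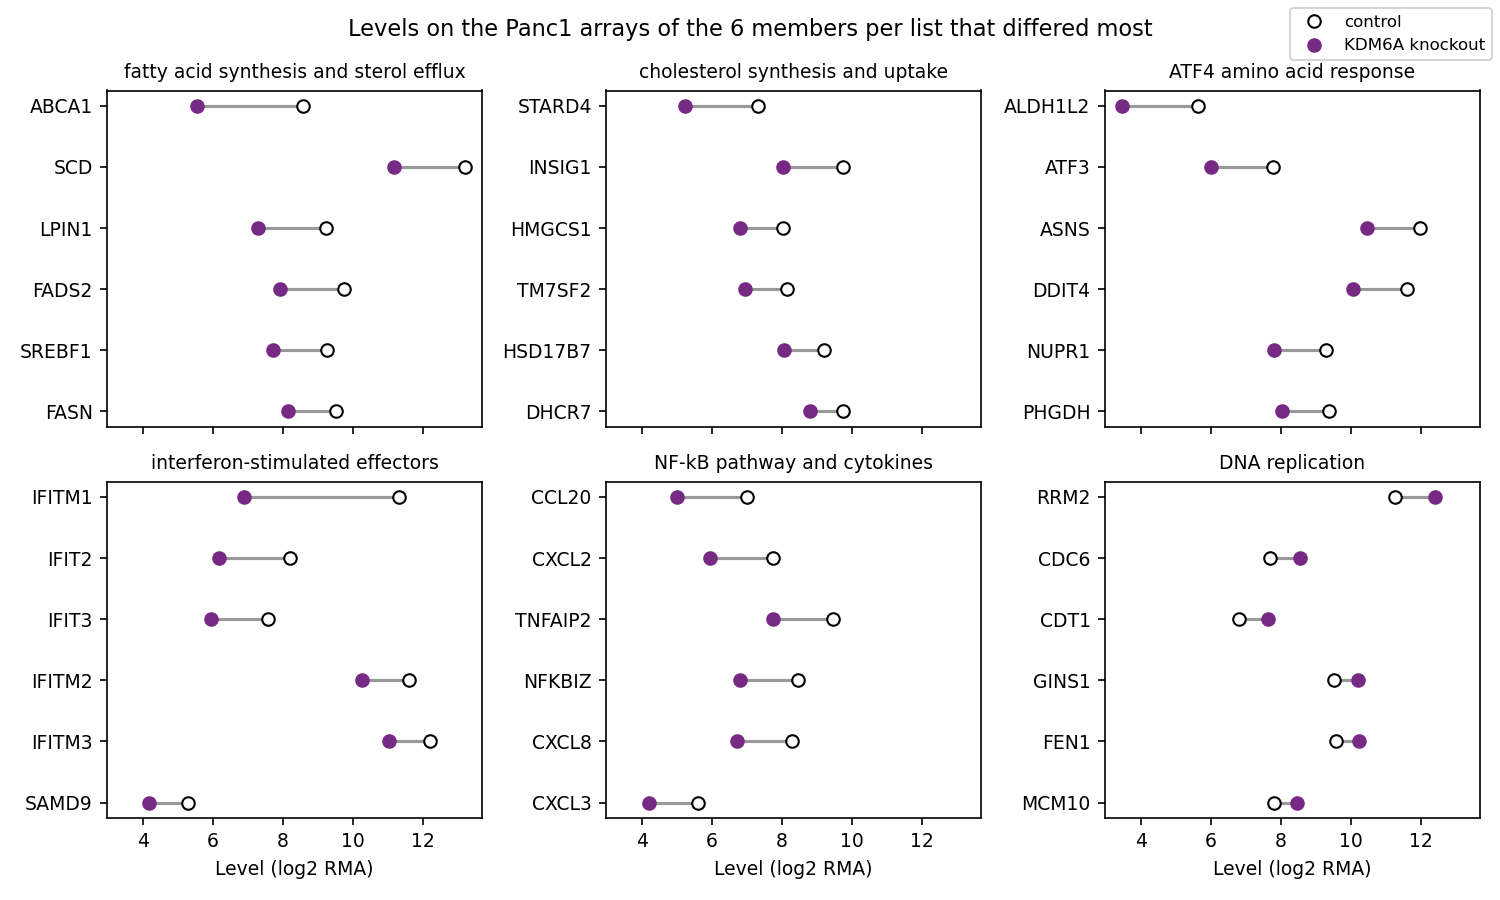
Levels on the Panc1 control array (open circles) and the Panc1 knockout array (filled circles) on the log2 RMA scale (horizontal axis) of the 6 members (vertical axis) that differed most in each of 6 lists. In the lipid, ATF4, interferon and NF-kB panels each knockout circle lies left of its control circle, and in the DNA replication panel each lies right of it.

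Interferon-stimulated effectors were lower on the knockout array. Interferons act through STAT and IRF factors that bind short elements upstream of these genes, whose products block viral entry and translation. Of 23 measured effectors 20 lay below 0, and the median was -0.65. Past 2-fold, 7 were lower and 0 higher, beside 3.46% and 0.556% of all genes. IFITM1, a membrane protein that blocks viral fusion, read 11.30 in control and 6.88 in knockout cells (-4.42) on its only probe set past the filter. Its paralogs IFITM2 (11.60 and 10.26, -1.34) and IFITM3 (12.18 and 11.03, -1.15) differed less, and the probe sets of all 3 are of the kinds that may read related transcripts too. IFIT2 read 8.20 and 6.17 (-2.03) and IFIT3 7.57 and 5.93 (-1.64), both of which bind viral RNA or its complexes. SAMD9, a restriction factor of poxviruses, was dim at 5.29 and 4.18 (-1.11). The other probe set of IFIT2 gave -0.18 and that of IFIT3 -0.98.

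The effectors were low in the other line as well. In BxPC3 the median of the 23 effectors was -0.76, all 23 lay below 0 and 3 were past 2-fold. By the interaction test 5 members had the lower difference in Panc1 and 6 the higher, beside 14.4% of all genes called in either direction. IFITM1 was among the former, at -3.90 (limma adjusted p = 0.002), as BxPC3 kept it at 12.60 and 12.66 on control and 12.10 and 12.11 on knockout arrays. Interferon sensors, receptors and factors had a median of -0.36 over 18 members, with IRF9, the DNA-binding subunit of the interferon-stimulated complex, at 7.62 and 6.45 (-1.17) as the 1 member past 2-fold. IRF1 (-0.88), IRF7 (-0.79), STING1 (-0.66) and IFIH1 (-0.65) came next. Of 19 antigen presentation genes none was past 2-fold, and the median of -0.28 compares with -0.49 in BxPC3. The peptidase ERAP2 (-0.90) and the class I heavy chain HLA-B (-0.57), whose probe sets may read other class I genes, were lower, and the proteasome subunit PSMB10 was higher (0.50).

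The sequence before the start of these genes was searched for the core of the interferon-stimulated response element, GAAA, any 2 bases and GAAA again, on both strands, over 250 bases upstream of the start in RefSeq's promoters on GRCh38.p14. The core was in 3.02% of 35116 promoters and in 20 of the 26 listed effectors that had a promoter in the table. Of 342 measured genes with the core 26, or 7.60%, were at least 2-fold lower in Panc1, beside 3.25% of 10482 genes without it. Without the listed effectors 21 of 327 were lower. The medians, -0.06 with the core and -0.02 without, were close. Of the 6 effectors that differed most, 4 hold the core, IFIT3 and IFITM3 at 2 places each. The bases around the match nearest the start are printed to show how the element looks in the genes named above, with that match alone in capitals and the coordinates of the printed bases on GRCh38.p14.
IFITM1, chr11:313975-314034, plus strand: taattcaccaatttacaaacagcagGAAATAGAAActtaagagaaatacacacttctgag
IFIT3, chr10:89327850-89327909, plus strand: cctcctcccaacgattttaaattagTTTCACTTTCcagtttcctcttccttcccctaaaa
IFITM3, chr11:320861-320920, minus strand: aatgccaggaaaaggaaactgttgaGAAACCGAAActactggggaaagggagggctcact
SAMD9, chr7:93118081-93118140, minus strand: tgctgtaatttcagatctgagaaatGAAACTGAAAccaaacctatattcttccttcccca
The marked match lies 30 bases before the start in IFITM1 and 25 bases before it in IFITM3, and in IFIT3 it lies on the other strand, 112 bases before the start. In SAMD9 it lies 126 bases before the start. A match shows that these letters are present and is neither a bound site nor a cause of the lower level.

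Inflammatory genes downstream of NF-kB were lower, with exceptions. Of 23 measured members 17 lay below 0, and the median was -0.47, beside -0.23 in BxPC3. At least 2-fold lower were 6 and higher 1, beside 3.46% and 0.556% of all genes. CCL20, which attracts CCR6-bearing lymphocytes, read 7.01 and 4.99 (-2.02). The neutrophil chemokines CXCL2 (7.74 and 5.95, -1.79), CXCL8 (8.27 and 6.72, -1.55) and CXCL3 (5.59 and 4.20, -1.39) were lower together, although probe sets of these close paralogs may read each other. TNFAIP2 read 9.44 and 7.73 (-1.71), and NFKBIZ, a nuclear regulator of the pathway, 8.45 and 6.80 (-1.65). The higher member was CCL2, the monocyte chemokine, at 10.57 in control and 11.72 in knockout cells (1.14). In BxPC3 the means of CCL2 were dim, 3.79 in control and 2.74 in knockout cells (-1.05).

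The NF-kB site, GGGA, any 1 base and TTTCC, was searched over the same windows on both strands. It was in 0.527% of promoters and in 11 of 23 listed genes that had one. Of 83 measured genes with it 5, or 6.02%, were at least 2-fold lower, beside 3.37% of 10741 without it, and outside the list 2 of 74 were. CXCL2 and CXCL3, neighbours on chromosome 4, carry the same 10 letters, and NFKBIZ carries them too, farther from its start.
CXCL2, chr4:74099239-74099298, minus strand: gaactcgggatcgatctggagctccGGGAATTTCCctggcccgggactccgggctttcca
CXCL3, chr4:74038734-74038793, minus strand: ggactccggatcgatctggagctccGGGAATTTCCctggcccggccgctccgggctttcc
NFKBIZ, chr3:101827742-101827801, plus strand: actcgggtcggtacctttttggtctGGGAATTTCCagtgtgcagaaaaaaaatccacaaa
The match lies 68 bases before the start in CXCL2, 69 in CXCL3 and 213 in NFKBIZ.

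For the amino acid response the core shared by C/EBP and ATF response elements, TGATGNAA, was searched likewise. It was in 3.14% of promoters, and 0.216% of all promoters held more than 1 of the 3 motifs. Of 25 listed genes with a promoter 6 held it. Among 266 measured genes with the core 14, or 5.26%, were at least 2-fold lower, beside 3.34% of 10558 without it, and outside the list 11 of 260 were. The windows of the 3 members of the ATF4 list that hold it and were at least 2-fold lower are shown, including CHAC1, a glutathione-degrading enzyme at 7.75 and 6.55 (-1.21) that was named after its value was seen.
ATF3, chr1:212565191-212565248, plus strand: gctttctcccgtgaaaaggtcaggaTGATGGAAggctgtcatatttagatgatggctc
ASNS, chr7:97872444-97872501, minus strand: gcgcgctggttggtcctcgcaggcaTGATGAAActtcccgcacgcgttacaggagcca
CHAC1, chr15:40953237-40953294, plus strand: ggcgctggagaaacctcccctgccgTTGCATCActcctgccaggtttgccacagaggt
In ASNS the core lies 60 bases before the start, and in ATF3 and CHAC1 it lies 183 and 201 bases before it.

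Krueppel-like factors included large differences. KLF4, a zinc finger factor of epithelial differentiation, read 7.40 in control and 3.67 in knockout cells (-3.73), while in BxPC3 its 4 arrays read between 9.61 and 9.82. A dim second probe set, below the median on both Panc1 arrays, differed by -0.24. KLF12, a repressor of the same family, read 7.42 and 4.23 (-3.19), with 0.35 on its other probe set. KLF7 read 6.39 and 5.21 (-1.18), and up to 0 over its 4 probe sets. KLF5 went the other way, at 4.69 and 5.54 (0.85, and 1.75 on its other probe set). Of 15 Krueppel-like factors 3 were at least 2-fold lower and 0 higher, beside 3.46% and 0.556% of all genes. The list median was -0.35.

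Among HOX genes, which keep positional identity and are classic Polycomb targets, 3 of 19 were at least 2-fold lower, all from the B cluster, and 0 higher, beside 3.46% and 0.556% of all genes. HOXB8 read 8.46 and 6.82 (-1.64), HOXB6 9.37 and 8.06 (-1.31) and HOXB9 8.29 and 7.27 (-1.02). HOXB9 was short of 2-fold under each other scaling, from -0.92 to -0.85, and at -0.59 as the mean of its probe sets. HOXB3 (-0.63) and HOXB4 (-0.55) were also below 0, and HOXC13 was the highest at 0.77. The list median of -0.16 became 0.0075 with median centring. Of 16 Polycomb group genes 0 were past 2-fold. EZH1, a methyltransferase of Polycomb repressive complex 2, was at -0.86 with probe sets up to 0.45, and EED (0.74) and MTF2 (0.74), subunits of the same complex, were higher. Their median was -0.05, and 0.122 with median centring. Histone deacetylases had a median of -0.18 over 15 members with 0 past 2-fold. HDAC6 (8.43 and 7.60, -0.83) and HDAC5 (6.56 and 5.87, -0.69) were the lowest, and each had a probe set above 0, at 0.71 and 0.24.

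In the signalling lists few members passed 2-fold. KIT, the receptor of stem cell factor, read 3.63 in control and 7.89 in knockout cells (4.25), the 1 member past 2-fold of 26 receptor tyrosine kinases, whose median was -0.01. It lay below the median on the control array, and 1 probe set measured it. PTK7 (-0.79) and FGFR3 (-0.75) were the next largest. Among growth factors NRG1, a ligand of ERBB receptors, read 8.16 and 5.97 (-2.19), HBEGF, a ligand of EGFR, 7.44 and 6.01 (-1.43), and PDGFA 6.55 and 5.25 (-1.31), and 0 of the 15 ligands were past 2-fold higher. For NRG1, HBEGF and PDGFA other probe sets reached 0.16, 0.37 and -0.24. The 3 lower of 15 ligands stand beside 3.46% of all genes. Of 26 genes of ERK output 1 was past 2-fold, the ETS factor ETV1 (7.00 and 5.56, -1.44, but -0.07 on its other probe set). The feedback phosphatases DUSP5 (-0.81) and DUSP6 (-0.73) were lower by less.

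In the BMP and TGF-beta list ID2 and ID3, direct targets of BMP signalling, were the 2 members of 29 past 2-fold higher. ID3 read 7.46 and 9.12 (1.67). The related ID1 (0.77) and ID4 (-0.04), named after their values were seen, were short of 2-fold. Lower were INHBB, an activin subunit (8.18 and 6.66, -1.53), the SMAD co-repressor SKIL (9.52 and 8.30, -1.22) and the latent TGF-beta binding protein LTBP2 (9.13 and 8.04, -1.08). Over its 3 probe sets SKIL ranged up to -0.49. The list median of -0.10 became 0.073 with median centring. In the Wnt and Notch list FZD7, the Wnt antagonists SFRP1 (9.33 and 7.53, -1.80) and DKK3 (10.65 and 9.15, -1.51), the Notch target HEY1 (6.55 and 4.99, -1.57) and the receptor FZD2 (8.22 and 7.16, -1.06) were at least 2-fold lower, and LEF1, a nuclear effector of Wnt, was higher (6.77 and 8.02, 1.25), out of 28. A dimmer probe set of SFRP1 gave 0.19, the second of HEY1 -0.60 and that of LEF1 0.00. The Wnt and Notch list thus held 5 lower genes and 1 higher, beside 3.46% and 0.556% of all genes. Its median of -0.04 was 0.129, 0.033 and 0.0032 under the other scalings.

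IGFBP2, which binds insulin-like growth factors, read 6.94 and 3.95 (-2.99) and was the 1 of 11 genes of its list past 2-fold. IRS1 was at -0.94 and IGFBP3 at 0.88. Targets of YAP and TEAD held 1 higher gene, the initiator of coagulation F3 (4.57 and 6.70, 2.13), and 1 lower, the ectonucleotidase NT5E (10.82 and 8.91, -1.91), among 19, with CCN2 at -0.99 and TGFB2 at -0.94. Of 20 genes of the BCL2 family and death receptors TNFSF10, the death ligand TRAIL, was past 2-fold at 5.17 and 3.14 (-2.02), and the median was -0.28.

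Of all 13479 genes PDLIM1, a PDZ-LIM adaptor of stress fibres, had the largest difference in Panc1. It read 11.16 in control and 6.68 in knockout cells (-4.49, 22.4-fold) on its only probe set past the filter. In BxPC3 PDLIM1 read 11.81 and 11.79 on control and 11.83 and 11.88 on knockout arrays, and the interaction (-4.54, limma adjusted p = 0.00177) had the smallest p of all genes. COBLL1, a relative of an actin nucleator, was higher at 3.26 and 6.77 (3.51), with 0.78 on its other probe set. ABLIM3, an actin-binding LIM protein, read 8.87 and 6.97 (-1.90). The remaining members of that list of 31 stayed within 2-fold, and its median of -0.05 was 0.127 with median centring.

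Epithelial junction genes were lower in part. DSP, which ties desmosomes to keratin filaments, read 9.71 and 6.43 (-3.28), and CLMP, a tight junction adhesion molecule, 5.54 and 2.50 (-3.04). CDH1, which encodes E-cadherin, read 7.87 and 5.78 (-2.08), and the claudin CLDN4 9.30 and 8.11 (-1.19). Against them DSC2 was higher (1.65), which left 4 lower and 1 higher of 24 past 2-fold, beside 3.46% and 0.556% of all genes. The list median was -0.25. Among mesenchymal genes none of 15 was past 2-fold, and CDH2, which encodes N-cadherin, was at -0.66, SPARC at -0.89 and TCF4 at -0.91. That holds for the brightest probe set of each gene, as dimmer ones of SPARC and TCF4 gave -1.99 and -2.07. Their median of -0.12 was 0.049 with median centring and -0.661 without probe sets that may read several transcripts.

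Matrix genes were lower with a median of -0.47 over 18 measured collagens and matrix proteins. Past 2-fold, 5 were lower and 0 higher, beside 3.46% and 0.556% of all genes. The median ranged from -0.768 with the mean of each gene's probe sets to -0.0944 with no filter. COL4A2, a basement membrane chain, read 6.12 and 3.50 (-2.62), EFEMP1 5.04 and 3.34 (-1.70, and 0 with no filter, where another probe set was the brightest), the laminin chain LAMB1 9.12 and 7.76 (-1.37), COL4A5 5.33 and 4.04 (-1.29) and COL5A2 9.31 and 8.09 (-1.22). In BxPC3 their median was 0.06 and 1 member was past 2-fold, upwards. The interaction test called 8 of 18 with the lower difference in Panc1 and 0 with the higher, beside 14.4% of all genes in either direction. These calls use the same Panc1 differences and are no separate support. Of 9 markers of fibroblasts and stellate cells, which also make matrix, 4 passed the filter, with a median of 0.36, and the 9 levels summed to 40.20 on the control and 41.80 in the knockout. PDGFRA read 3.59 on both arrays and DCN 5.05 and 5.47. COL1A1 read 6.72 and 7.07 on its brightest probe set but down to -3.13 as a difference over its 4 probe sets. Among 15 integrins none was past 2-fold on its brightest probe set, where ITGAV (11.65 and 10.79, -0.86) and ITGA3 (-0.75) were the lowest. Dimmer probe sets of ITGB5 and ITGA6 gave -2.04 and -1.46.

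Of 29 proteoglycans and their enzymes 4 were at least 2-fold lower and 4 higher, beside 3.46% and 0.556% of all genes. The chondroitin sulfotransferase CHST15 read 9.22 and 5.43 (-3.79), although its second probe set gave 0.00. The basement membrane core protein HSPG2 read 9.03 and 7.70 (-1.34), with -0.06 on its other probe set. The galactosyltransferase UGT8 (2.35 and 5.18, 2.82) and the dermatan epimerase DSE (4.33 and 6.84, 2.51) were higher from levels below the median. Extracellular proteases and coagulation genes held 4 lower and 1 higher of 22, with TIMP2, the thrombin receptor THBD (5.94 and 4.34, -1.60), ADAM19 (-1.08) and protein S (PROS1, -1.07) lower and F3 higher.

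Of 21 ion channel and cyclic GMP genes 5 were at least 2-fold lower and 2 higher, beside 3.46% and 0.556% of all genes. TRPA1, a cation channel that senses reactive compounds, read 8.05 in control and 3.73 in knockout cells (-4.32), and 3.33 to 3.53 on the BxPC3 arrays. GUCY1B1, the beta subunit of the guanylate cyclase, read 3.81 and 5.78 (1.96), while GUCY1A2, an alpha subunit, was lower (-3.58). PRKG1, the kinase that cyclic GMP activates, read 5.70 and 4.24 (-1.46). The potassium channel KCNJ2 read 5.15 and 3.71 (-1.44) and the chloride channel CLIC3 6.76 and 4.77 (-1.99). PDE5A, which degrades cyclic GMP, read 9.04 and 7.53 (-1.51), but up to -0.05 over its 5 probe sets. PDK4, which shuts pyruvate out of the mitochondrial cycle, belongs to no list and read 6.56 and 2.40 (-4.17). In BxPC3, where it lay below the median, PDK4 read 3.18 to 3.41. Dim probe sets below the filter differed by 0.33 and 0.07 for PDK4 and by -0.08 for TRPA1.

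The remaining lists differed little as groups. Of 24 NRF2 and detoxification genes 2 were at least 2-fold lower, beside 3.46% of all genes. They were the exporter ABCC3 (8.81 and 7.42, -1.39, with probe sets up to 0.22) and transketolase TKT (11.79 and 10.53, -1.26, up to -0.60). NQO1 was at -0.66, and UGDH was just short of 2-fold higher. Of 27 hypoxia and glycolysis genes the aldolase ALDOC was the 1 past 2-fold (7.55 and 5.75, -1.80), and a list median of -0.12 was 0.050 with median centring. Of 28 lysosomal genes 0 were past 2-fold, with the cathepsin CTSH at -0.93 and the galactosidase GLA at 0.76. Of 7 arrestin and thioredoxin genes ARRDC4 was past 2-fold (5.80 and 4.62, -1.18), and TXNIP, a partner of thioredoxin, was at -0.64, with -1.86 on another probe set.

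**Figure D4:**
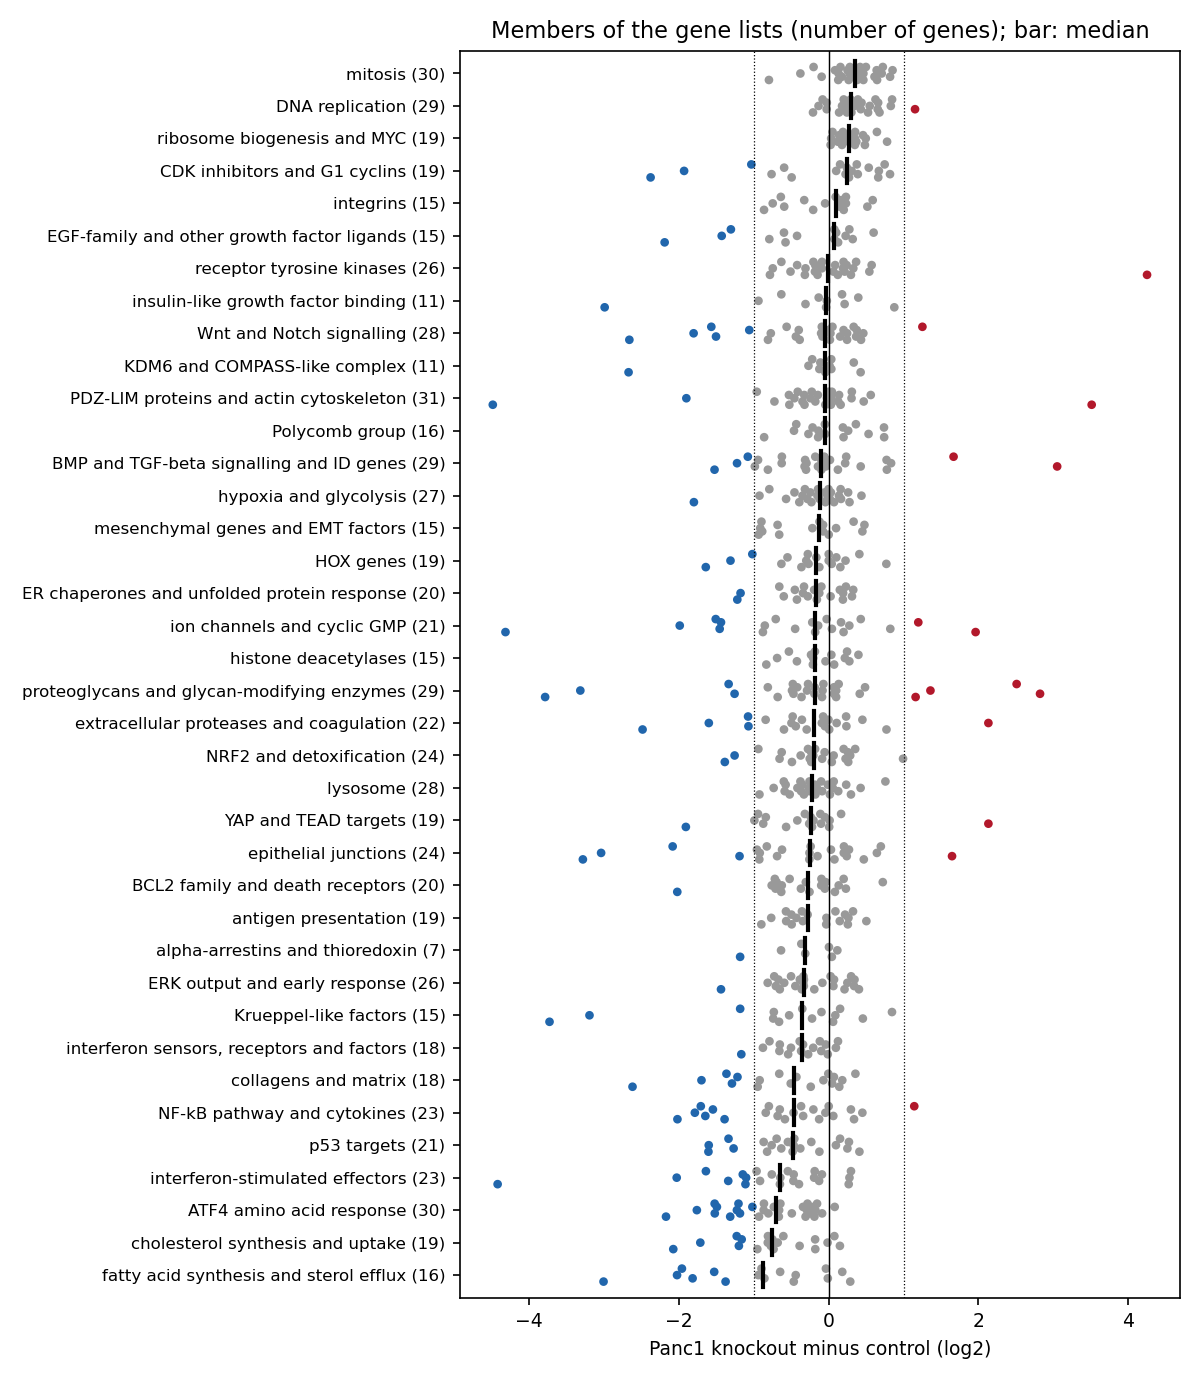
Knockout minus control in Panc1 (horizontal axis, log2) of each measured member of 38 gene lists (vertical axis, number of genes in brackets), 1 point per gene, blue at least 2-fold lower, red at least 2-fold higher, with the list median as a black bar. Fatty acid synthesis and sterol efflux (-0.88), cholesterol synthesis (-0.75) and the ATF4 response (-0.70) have the lowest medians and mitosis (0.36) the highest.

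Between the lines, 1946 of 13479 genes, or 14.4%, passed the interaction test, 1332 with the lower and 614 with the higher difference in Panc1. At an unadjusted p under 0.05 there were 4587. Of the 466 genes at least 2-fold lower in Panc1 409 were among the calls, and of the 75 higher ones 69, which describes genes picked by a value that enters the contrast. The count rested on single BxPC3 arrays. Leaving out control array 1 gave 152 calls, control array 2 gave 158, knockout array 1 gave 2667 and knockout array 2 gave 3221, and 26 of 36 genes followed closely kept their call without either control array, against 34 with all arrays. It also moved to 2703 with median centring, 1010 of them lower and 1693 higher in Panc1, so that higher calls were in the majority there.

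The smallest interaction p belonged to PDLIM1, IFITM1, PDK4, SRGN, TRPA1 and KLF4. All 6 were at least 9.97-fold lower on the Panc1 knockout array, and their BxPC3 differences lay between -0.53 and 0.06. PDK4 and TRPA1 were dim in BxPC3 control cells, at means of 3.37 and 3.40, where a decrease could hardly show. SRGN read between 11.39 and 11.46 on the 4 BxPC3 arrays. Their adjusted p lay at or under 0.00259, and up to 0.0273 over the alternatives.

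Some genes were lower in both lines. At least 2-fold lower in each were 15, which is 3.22% of the 466 in Panc1 and 19.5% of the 77 in BxPC3. Over all 13479 genes, 3.46% were at least 2-fold lower in Panc1 and 77 were in BxPC3. At least 2-fold higher in both were 0 genes, where 0.556% of all genes were higher in Panc1 and only 8 genes in BxPC3. The 15 were named after their values were seen. Largest in Panc1 were IGFBP2 (-2.99 in Panc1, -1.51 in BxPC3), the matrix crosslinking enzyme LOXL1 (-2.92 and -1.21) and the adaptor SASH1 (-2.80 and -1.41). CCL20 (-2.02 and -1.78), CLIC3 (-1.99 and -1.58), CCND2 (-1.93 and -2.67), LAMP3 (-1.90 and -1.80), complement factor B CFB (-1.79 and -1.55) and NREP (-1.68 and -1.95) followed. Carbonic anhydrase CA2 (-1.45 and -3.21), the TNF family ligand TNFSF9 (-1.39 and -1.85), ARRDC4 (-1.18 and -1.58), the exonuclease ISG20 (-1.10 and -1.28), SRPX (-1.04 and -1.45) and CDKN1A (-1.03 and -1.14, short of 2-fold in Panc1 under other scalings) completed them.

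Against these, 4 genes were at least 2-fold higher in Panc1 and at least 2-fold lower in BxPC3, and 0 the other way round. Only the 8 genes at least 2-fold higher in BxPC3 could have gone that way. The 4 too were named after their values were seen. MAN1A1, a mannosidase of N-glycan trimming, differed by 1.90 in Panc1 (6.21 and 8.11) and by -1.10 in BxPC3, an interaction of 3.0 ± 0.24 (SE, limma adjusted p = 0.00548). For ID3 the interaction was 2.81 ± 0.24, for CCL2 2.20 ± 0.22 and for the endothelial lipase LIPG 2.53 ± 0.13, with adjusted p of 0.00695, 0.00909 and 0.00345. The 4 were picked by opposite differences that enter this contrast. Their calls, also those under every alternative, were therefore set by the choice and are no result. VEGFC, a lymphatic growth factor, was at 0.60 in Panc1 and -1.52 in BxPC3.

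**Figure D5:**
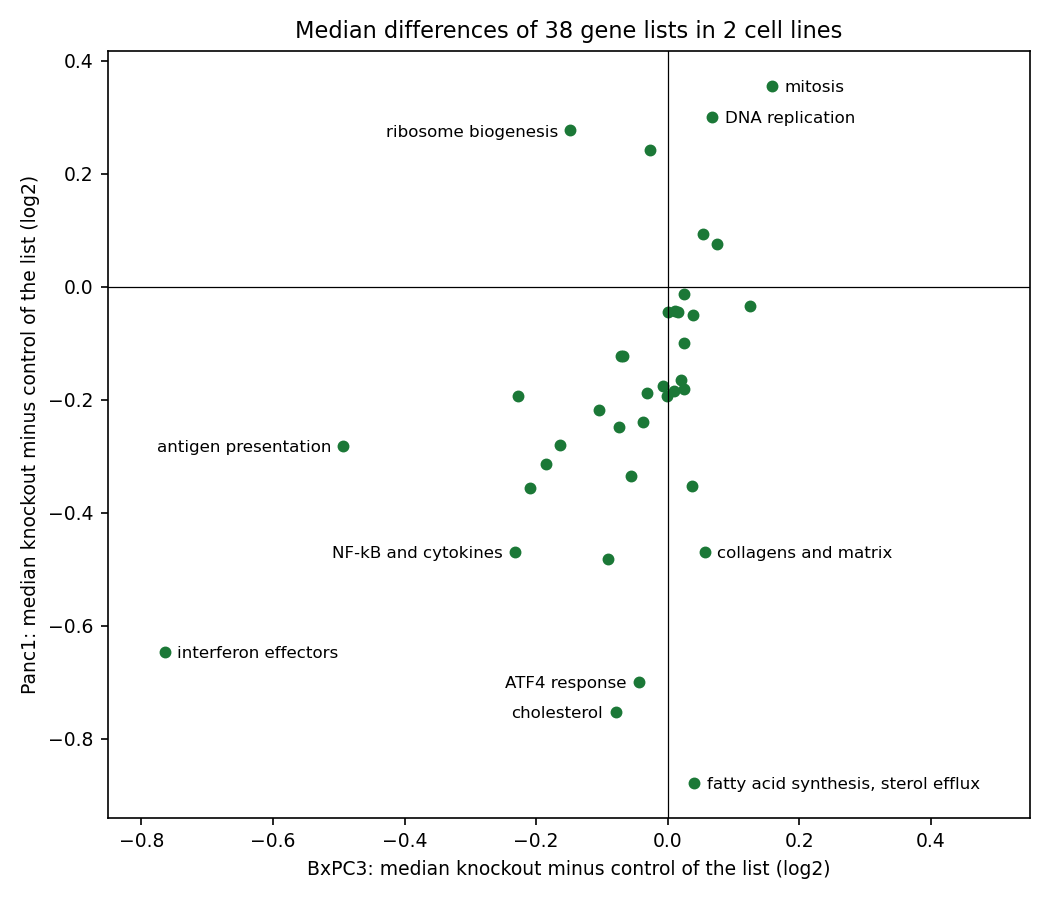
Median knockout minus control of 38 gene lists in BxPC3 (horizontal axis, log2, 2 arrays per genotype) and in Panc1 (vertical axis, log2, 1 array per genotype), 1 point per list over the members measured in Panc1. Interferon-stimulated effectors lie at -0.76 and -0.65, low in both lines, while the lipid and ATF4 lists lie low in Panc1 and within 0.08 of 0 in BxPC3.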

How the data were processed

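The deposited values are log2 expression summaries, 1 per probe set and array, which the authors made with RMA in the affy package, per the submitters' processing notes, which name no version. The method removes background, equalises probe distributions and keeps dim probe sets above 0. Of 54613 probe sets 41091 carried 1 symbol in the platform annotation, 1801 several and 11721 none. Of the first kind, 41037 matched RefSeq by gene identifier and 0 symbols needed updating. Equal values on both Panc1 arrays occurred at 2895 probe sets.

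The Panc1 difference was taken without a test. The interaction used limma 3.58.1 in R 4.3.3 with 1 mean for each of 4 groups, 2 residual and 3.11 prior degrees of freedom, two-sided, threshold 0.05. Whether arrays of a BxPC3 group were separate cultures is not stated, so its p-values measure the spread between arrays, which may be technical.

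The comparison and the 44 gene lists (1022 distinct entries, 80 without a usable probe set, 6 of them lists of markers) were chosen with earlier results of these data known, and the 3 promoter motifs after values were seen. Named genes were KDM6A, KDM6B and CDKN1A, up to 15 per direction whose probe sets all differed at least 2-fold, up to 6 per list by size, those with strongly opposed probe sets (none) and the 6 smallest interaction p. Promoters came from RefSeq, and 2655 measured genes had none in the table. Alternatives covered scaling, filters, choice of probe set, the variance prior, replicate blocks and left-out arrays. The steps were tested on simulated data. The values of 1 of the 11 higher genes with agreeing probe sets are not reported here.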

Additional observations from a re-analysis of the deposited data

Results flagged for a closer look

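Of 36 genes followed closely, 34 differed between the lines in their knockout difference by the limma interaction contrast, with adjusted p from 0.00177 to 0.0403. The 36 were chosen by values that enter this contrast, so the share called was set by the choice and is no result. Values here are the Panc1 minus the BxPC3 difference on the log2 scale, and no explanation was tested.

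Lower in Panc1 were the 6 genes with the smallest p, PDLIM1 (-4.54), IFITM1 (-3.90), PDK4 (-4.04), SRGN (-3.29), TRPA1 (-4.34) and KLF4 (-3.62). Also lower, with agreeing probe sets, were GUCY1A2 (-3.81), GABRB1 (-3.48), ABCA1 (-3.07), UNC5C (-2.71), ENPP1 (-2.47), FZD7 (-2.34) and SLC4A11 (-2.25). SLC6A15 (-2.10), CDKN1C (-1.95), KDM6A (-1.88), NOL4L (-1.82), TIMP2 (-1.81), TBC1D4 (-1.70) and ANTXR2 (-1.69) followed. In 7 of these, GUCY1A2, GABRB1, SLC6A15, PDK4, TRPA1, ENPP1 and UNC5C, the mean BxPC3 control level was dim, from 2.30 for GUCY1A2 to 4.19 for UNC5C.

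Higher in Panc1 were ID2 (3.13), PRRG4 (2.74), DIPK1A (2.33), RRAGD (2.10), INPP4B (1.79), ENC1 (1.54), MITF (1.45), DSC2 (1.38), CHST11 (1.16) and RRM2 (1.11). The genes at least 2-fold higher in Panc1 and at least 2-fold lower in BxPC3 were MAN1A1 (3.0), ID3 (2.81), LIPG (2.53) and CCL2 (2.20).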

How the results depend on the processing

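Counts of Panc1 genes at least 2-fold lower kept within 1.5 times 466 under all 7 alternatives, from 320 with median centring to 486 with no filter on dim probe sets. Of 117 named genes past 2-fold 32 were short of it in at least 1 alternative, 19 with the mean of a gene's probe sets and 10 with median centring. Higher genes numbered 129 with median centring. Genes with every probe set higher were 22 with median centring and 5 without probe sets that can read several transcripts, where those with every probe set lower were 31. The interaction count was 971 with no filter, 3083 with a variance prior that follows expression and 152 to 3221 when 1 BxPC3 array was left out. With the BxPC3 replicate number as a replicate block it was 770, and 1299 with the numbers crossed, a fit added after seeing the data. Deviations of same-numbered BxPC3 arrays correlated at -0.166. What the replicate numbers stand for is not stated, and this single value cannot show whether same-numbered arrays shared a batch. Calls of KDM6A, TBC1D4, INPP4B, DSC2, RRAGD, MITF, CHST11 and RRM2 ended under some alternatives.

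Median differences of lists that changed sign were, with median centring, KDM6 and COMPASS-like complex 0.128, Polycomb group 0.122, BMP and TGF-beta 0.073, insulin-like growth factor binding 0.137, Wnt and Notch 0.129, PDZ-LIM proteins 0.127, mesenchymal genes 0.049, hypoxia 0.050, HOX genes 0.0075 and duct markers 0.112. With quantile normalization they were 0.059, 0.026, 0.026 and 0.033 for the KDM6, Polycomb, insulin-like growth factor and Wnt lists, and with lowess 0.0034, 0.00358 and 0.0032 for the KDM6, Polycomb and Wnt lists. Proteoglycans were at 0.067 with no filter. Without probe sets that can read several transcripts PDZ-LIM proteins were at 0.0035, arrestins at 0.0032, duct markers at 0.104, and GADD45B and ABCC3 at 0.165 and 0.220 as Panc1 differences. GUCY1A2 had an interaction of 0.087 with no filter, where a probe set with a higher mean over the Panc1 arrays stood for it (adjusted p = 0.852, from 0.000525 upwards over its alternatives). A setting with averaged probe sets gives no count of agreeing ones. Precision is limited by the single array per Panc1 genotype, and dim probe sets understate differences.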

Other observations

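By chromosome, the Panc1 difference had medians over genes from -0.11 on chromosome 7 to 0.08 on chromosome 4, among 23 chromosomes. The share of genes at least 2-fold lower lay between 1.35% on chromosome 22 and 5.66% on chromosome 7, around 3.46% over all genes.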
